A study of Mus musculus with 8 samples.

Results

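The 34 genes described here are the enzymes and transporters of glycolysis and a group of genes switched on when oxygen is low. They were chosen by symbol, from a list that was made with earlier results of these data known. All 34 were present in the read count table of the RNA-seq libraries, among 20608 symbols, and in both single-cell matrices, among 27998 genes each. All 34 symbols also matched the GENCODE M21 annotation of the mouse genome (mm10).

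The samples came from brain tumours of Patched 1 deficient mice, a model of medulloblastoma driven by Sonic hedgehog signalling in which loss of the Patched 1 receptor leaves granule neuron precursors of the cerebellum dividing. The 4 groups were a relapsed tumour (1 single-cell library, 3 weeks), a primary tumour (1 single-cell library), stroma B (3 RNA-seq libraries of sorted astrocytes) and stroma A (3 RNA-seq libraries of sorted astrocytes). The design text names astrocytes of primary and relapsed tumours as the material of the RNA-seq, but no label ties stroma A or stroma B to either state, so the stroma groups keep their own names. The library of the relapsed tumour is called relapsed by its title and source label and primary by its free-text description; the title was followed. Every group carried the Patched 1 deficiency, and no wild-type sample, age, sex or strain was given in the labels, so the deleted gene could not serve as a check of the labels.

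Glycolysis splits glucose into pyruvate in the cytoplasm and yields ATP without oxygen; lactate dehydrogenase then turns pyruvate into lactate, which leaves the cell through proton-coupled transporters. When oxygen is scarce, prolyl hydroxylases no longer mark the hypoxia-inducible factors HIF-1α and HIF-2α (encoded by Hif1a and Epas1) for destruction, and these factors bind short ACGTG or GCGTG cores near genes for glucose uptake, glycolysis, mitophagy and vessel growth. In the brain, astrocytes are known for high glycolysis and lactate release, and dividing granule neuron precursors for hexokinase 2-driven glycolysis.

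The single-cell libraries held 7852 barcodes and 69403567 unique molecular identifiers (UMIs, counted molecules) in the relapsed tumour, and 9164 barcodes and 56332247 UMIs in the primary tumour; 7369 and 8548 cells were kept in that order of libraries, with median depths of 6998 and 5292 UMIs, and 93 barcodes occurred in both libraries. The 34 genes and the wider pathway lists were kept out of the genes used for clustering. The 2 libraries stood apart: of the 14297 cells in the 14 clusters of granule lineage cells, 15 came from the library that was the minority in its cluster, so every comparison in that lineage sets different clusters side by side. With 1 library a state, differences between the tumours have no replicate check and no test. Levels are given as CPM, the counts per 1e6 UMIs: the UMIs of a gene relative to those of all cells of a class in a library, with 95% exact Poisson intervals that cover counting error only, and a gene was called measured in a class with at least 30 UMIs over both libraries. The class called astrocyte-like expressed its marker list at 7901 CPM in relapsed and 9762 CPM in primary cells, with none of the 10 markers at 0. In granule lineage cells the same list summed to 321.9 CPM in relapsed and 332.8 CPM in primary cells. Because the class was named from these same markers, its marker levels are no separate check of the name.

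The promoters of 5 genes are shown here because these genes were among the 6 with the largest relapsed-to-primary ratios in astrocyte-like cells, of the members with at least 30 UMIs there and at least 1 in each library, and hold a hypoxia response core. Each sequence is the 250 bases before a RefSeq transcription start (GRCm38.p6), 5′ to 3′ on the strand of the gene, and capitals mark the motif ACGTG, the motif GCGTG, or a reverse complement of either on the other strand (CACGT for the first, while CACGC is that of the second). The palindrome in the Bnip3 window is a pair of overlapping matches. Bnip3 at chr7:138909507-138909756 on the minus strand holds 5 matches, and 13 of its bases lie in an exon of the GENCODE annotation. Slc16a3 at chr11:120948817-120949066 on the plus strand holds 2, with 14 bases in an exon. Pdk1 at chr2:71872974-71873223 on the plus strand holds 1, Adm at chr7:110627407-110627656 on the plus strand holds 2, and Eno1 at chr4:150236458-150236707 on the plus strand holds 1. Pdk1 and Eno1 have further windows that are not printed. The one for Pdk1, at chr2:71874654-71874903, holds 0 matches, and those for Eno1 hold 2 each.
Bnip3: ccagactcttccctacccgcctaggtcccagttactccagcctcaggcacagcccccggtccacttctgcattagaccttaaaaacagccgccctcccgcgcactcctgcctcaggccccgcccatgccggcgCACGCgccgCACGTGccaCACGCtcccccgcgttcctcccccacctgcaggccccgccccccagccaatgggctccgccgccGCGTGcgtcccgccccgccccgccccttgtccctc
Slc16a3: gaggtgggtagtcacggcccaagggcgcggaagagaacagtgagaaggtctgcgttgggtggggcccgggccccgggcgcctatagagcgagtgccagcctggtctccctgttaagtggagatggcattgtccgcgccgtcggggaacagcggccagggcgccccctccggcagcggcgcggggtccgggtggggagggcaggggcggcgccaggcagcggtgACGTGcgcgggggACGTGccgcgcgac
Pdk1: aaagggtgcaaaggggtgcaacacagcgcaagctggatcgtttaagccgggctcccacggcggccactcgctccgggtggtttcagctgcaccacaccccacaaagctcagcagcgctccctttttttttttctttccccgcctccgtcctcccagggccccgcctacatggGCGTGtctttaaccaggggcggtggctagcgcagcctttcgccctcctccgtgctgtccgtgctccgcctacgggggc
Adm: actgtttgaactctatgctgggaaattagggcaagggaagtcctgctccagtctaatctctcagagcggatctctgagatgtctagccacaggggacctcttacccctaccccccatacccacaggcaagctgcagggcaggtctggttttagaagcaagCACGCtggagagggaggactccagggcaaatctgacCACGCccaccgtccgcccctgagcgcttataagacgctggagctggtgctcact
Eno1: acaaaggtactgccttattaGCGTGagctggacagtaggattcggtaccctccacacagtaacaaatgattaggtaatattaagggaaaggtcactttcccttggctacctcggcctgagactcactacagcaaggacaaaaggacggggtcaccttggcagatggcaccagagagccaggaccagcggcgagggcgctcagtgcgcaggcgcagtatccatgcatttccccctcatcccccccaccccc

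The window before Ero1l, on chromosome 14, holds 3 matches; it overlaps 69 annotated exon bases and is not printed. RefSeq windows were matched for 31 of the 34 genes, leaving Epas1, Ndrg1 and Bnip3l without one. At least 1 match lay in 35 of 46 windows of these genes (76.1%), against 38.6% of all 32851 windows of 27025 genes. A match is a description of letters in these windows and not a binding site, and base composition was not matched between the groups of windows.

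In astrocyte-like cells most of the 34 genes were higher in the relapsed than in the primary tumour. The class held 58 relapsed and 40 primary cells, with 1038579 and 222905 UMIs in that order. Of the 30 genes measured, 21 were at least 2-fold higher in relapsed cells, against 9.37% of all 5573 genes measured in the class, and 1 was at least 2-fold lower, against 10.8%; either way these were 22, against 20.2%. Their median log2 ratio was 1.43, beside −0.08 for all measured genes. Since the relapsed cells were the deeper ones, a gene could reach 30 UMIs through them alone, and the count covers only the genes that did. Eno2, Ankrd37 (an ankyrin repeat gene induced by HIF), Egln3 and Pgk1 had fewer than 30 UMIs. For 17 of the 21 genes the Poisson intervals of the libraries did not overlap.

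**Figure D1:**
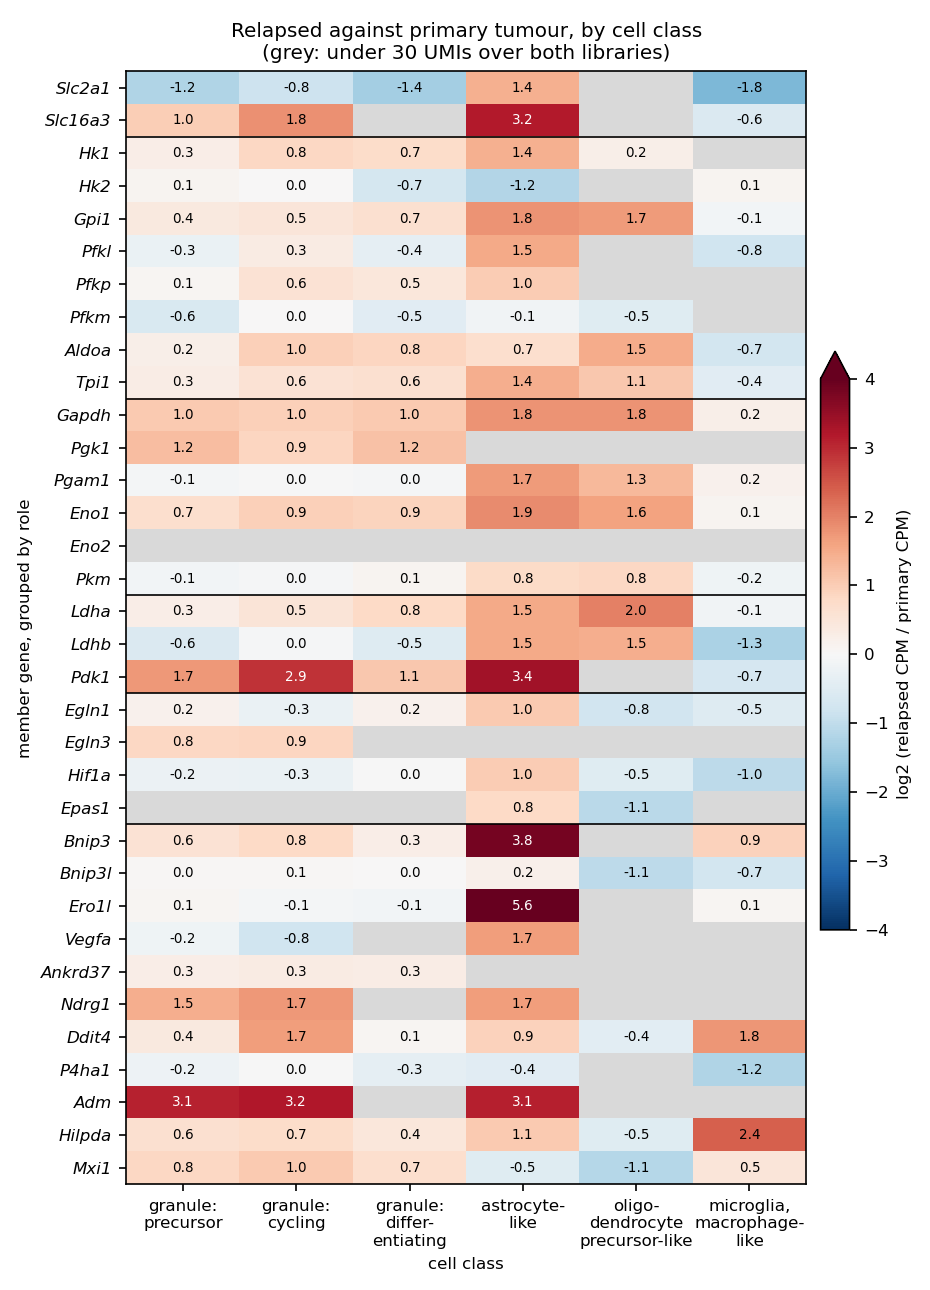
Log2 ratio of relapsed over primary CPM for each of the 34 genes (rows, ordered by role) in 6 cell classes (columns); red is higher in relapsed, blue is lower, and grey marks genes with fewer than 30 UMIs over both libraries. Where a library had no UMI the ratio is the bound set by 3 UMIs. The astrocyte-like column is red in 26 of its 30 measured genes, with Ero1l at 5.61.

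Both transporters were past 2-fold higher in relapsed astrocyte-like cells. Slc2a1 (GLUT1, which brings glucose into the cell) stood at 95.3 CPM in relapsed and 35.9 CPM in primary astrocyte-like cells, a ratio of 2.66-fold (95% interval 1.30 to 6.32). Slc16a3 (MCT4, which exports lactate) stood at 40.4 CPM in relapsed cells, from 42 UMIs, and at 4.49 CPM in primary cells, from 1 UMI; the ratio was 9.01-fold with an interval of 1.53 to 364. The width of that interval comes from the single primary UMI. Within sub-clusters 1 and 2, the subdivisions of the class that held cells of both tumours, neither gene stood higher in relapsed cells. There Slc2a1 stood at 33.0 CPM in relapsed and 39.3 CPM in primary cells, from 24 and 3 UMIs, and Slc16a3 at 2.75 CPM in relapsed and 13.1 CPM in primary cells, from 2 and 1 UMIs, all under the 30 UMIs required.

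Of 12 glycolytic enzyme genes measured, 8 were at least 2-fold higher in relapsed astrocyte-like cells, against 9.37% of all 5573 genes measured there. Gpi1, which turns glucose 6-phosphate into fructose 6-phosphate, stood at 422 CPM in relapsed and 121 CPM in primary cells (3.48-fold, 2.36 to 5.34). Gapdh, the oxidising step of the pathway, stood at 2937 CPM in relapsed and 839 CPM in primary cells (3.5-fold, 3.02 to 4.08). Eno1, the enolase used by most cells, stood at 1034 CPM in relapsed and 278 CPM in primary cells (3.72-fold, 2.88 to 4.88). The log2 ratios of Pgam1 (phosphoglycerate mutase), Pfkl (the liver form of phosphofructokinase), Tpi1 (triose phosphate isomerase) and Hk1 (the hexokinase found in most brain cells) were 1.71, 1.52, 1.44 and 1.42, and the libraries' intervals overlapped for Hk1. Pfkp, the platelet form of phosphofructokinase, was 2.00-fold higher from 28 relapsed and 3 primary UMIs, with overlapping intervals. Pkm (pyruvate kinase) and Aldoa (aldolase A) stayed under 2-fold, at log2 ratios of 0.76 and 0.68, and Pfkm (the muscle form of phosphofructokinase) stood at −0.15. Hk2, the hexokinase of dividing cells, was the exception, at 29.9 CPM in relapsed and 67.3 CPM in primary cells (log2 ratio −1.17, overlapping intervals).

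At the fate of pyruvate, both lactate dehydrogenase subunits and the kinase that keeps pyruvate from entering the citric acid cycle were past 2-fold higher. Ldha stood at 1133 CPM in relapsed and 395 CPM in primary astrocyte-like cells (2.87-fold, 2.31 to 3.61), and Ldhb, the subunit that favours the reverse reaction, at 572 CPM in relapsed and 202 CPM in primary cells (2.83-fold, 2.09 to 3.93). Pdk1, which inactivates pyruvate dehydrogenase, had 48 UMIs in relapsed and 1 in primary cells, or 46.2 and 4.49 CPM in the same order (10.3-fold, 1.76 to 415).

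Among the genes of oxygen sensing and the other hypoxia genes the ratios were the widest. Ero1l, an oxidase that forms disulfide bonds in the endoplasmic reticulum, had 227 UMIs (219 CPM) in relapsed and 1 UMI (4.49 CPM) in primary astrocyte-like cells, a ratio of 48.7-fold with an interval of 8.66 to 1933. Bnip3, a mitophagy receptor, had 133 UMIs (128 CPM) in relapsed and 2 UMIs (8.97 CPM) in primary cells (14.3-fold, 3.87 to 119). Adm, which encodes the vasodilator adrenomedullin, had 40 UMIs in relapsed and 1 in primary cells (8.59-fold, 1.46 to 348). Ndrg1, a stress-responsive gene of the N-myc downstream regulated family, had 45 UMIs in relapsed cells and none in primary cells; the ratio against a floor of 3 UMIs over the class was 3.22-fold, and the exact lower limit of the ratio was 2.51-fold. Vegfa, the vessel growth factor, stood at 72.2 CPM in relapsed and 22.4 CPM in primary cells (log2 ratio 1.69). Hif1a stood at 193 CPM in relapsed and 94.2 CPM in primary cells (log2 ratio 1.03), and Egln1, the main prolyl hydroxylase acting on HIF, and Hilpda, a lipid droplet protein, at log2 ratios of 1.04 and 1.05 with overlapping intervals. The remaining members were not past 2-fold: Ddit4 (an mTORC1 inhibitor) at 0.92, Epas1 at 0.79, Bnip3l (a mitophagy receptor related to Bnip3) at 0.22, P4ha1 (a collagen prolyl hydroxylase subunit) at −0.45 and Mxi1 (a MYC antagonist) at −0.49.

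**Figure D2:**
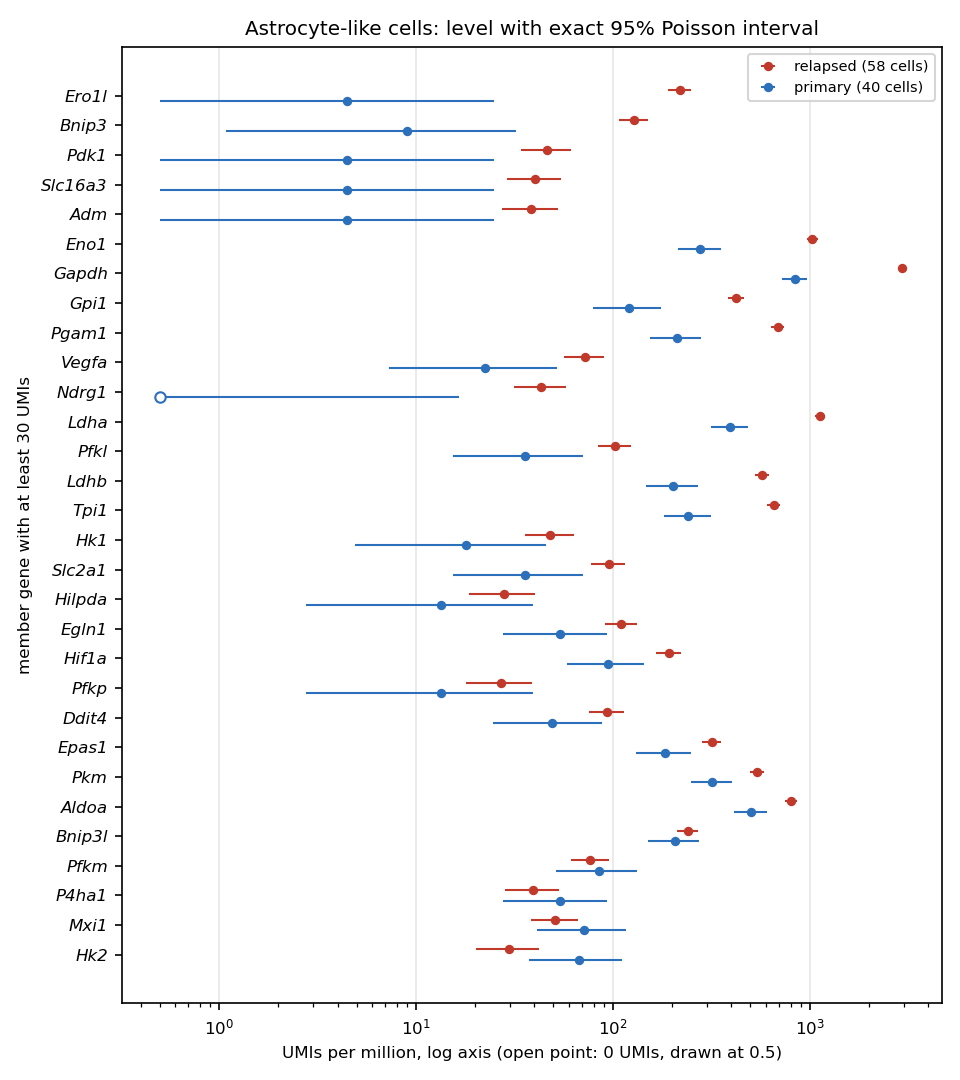
CPM of the 30 measured genes in astrocyte-like cells of the relapsed (red, 58 cells) and primary (blue, 40 cells) tumour on a log axis, with exact 95% Poisson intervals; the open point is Ndrg1 with no primary UMI, and points or interval ends below 0.5 CPM are drawn at 0.5. The relapsed points lie right of the primary points for 26 genes, from Ero1l with 219 against 4.49 CPM down to Bnip3l.

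Other measures moved with these values. The median depth was 16660 UMIs per relapsed and 4669 UMIs per primary astrocyte-like cell. After each cell was thinned to 2000 UMIs, with no cell left out, Ldha was detected in 77.6% of relapsed cells (64.7 to 87.5%, exact binomial) and 35.0% of primary cells (20.6 to 51.7%); unthinned shares were 100% and 55.0% in the same order. Eno1 was detected after thinning in 75.9% of relapsed and 42.5% of primary cells, and Bnip3 in 19.0% of relapsed and 2.5% of primary cells. Ero1l was detected in 8.62% of relapsed cells (2.86 to 19.0%) and in 0 of 40 primary cells, with an exact upper limit of 8.81%. These intervals overlapped, so its share of cells did not separate the libraries at this depth. The binomial intervals cover the sampling of cells in 1 library a state, not the spread between tumours. In granule lineage cells, at median depths of 6968 UMIs in relapsed and 5618 UMIs in primary cells, the thinned shares were 42.0% and 40.9% for Ldha, 3.88% and 3.32% for Bnip3, and 2.24% and 2.22% for Ero1l, relapsed first. Mitochondrial UMIs made up a median 5.98% of relapsed and 6.92% of primary astrocyte-like cells. The summed level of the 8 granule precursor markers was 496 CPM in relapsed and 1059 CPM in primary astrocyte-like cells. The 6 pericyte markers summed to 190 and 62.8 CPM, the 6 fibroblast markers to 142 and 40.4 CPM, the 8 endothelial markers to 36.6 and 4.49 CPM and the 6 pituitary hormone markers to 197 and 8.97 CPM, relapsed first. Neutrophil and T or NK cell markers were at 0 in both libraries. The part of these other cell types and of depth in the ratios was not tested.

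The relapsed values were uneven within the class. The astrocyte-like cells were 4 of the 7 sub-clusters of 1 cluster; the other sub-clusters rested on fewer than 3 astrocyte markers and stayed unnamed. The 4 were number 1 (19 relapsed and 9 primary cells, led by Aqp4, Mt2 and Mt1), number 2 (20 relapsed and 6 primary cells, led by Fabp7), number 3 (0 relapsed and 25 primary cells, led by Lcn2, Cxcl1 and Ccl2) and number 5 (19 relapsed and 0 primary cells, led by Lcn2, Timp1 and Serpina3n). Sub-cluster 5 gave 29.9% of all UMIs of relapsed astrocyte-like cells. It gave more than that share for 29 of the 31 members with at least 20 UMIs, against 45.6% of 6079 genes, and more than 50% of the UMIs of 13 members, against 5.2% of those genes. The UMIs of sub-cluster 5 counted towards the minimum of 20. A gene could thus enter these counts through that sub-cluster alone, as Slc16a3 did. Slc16a3 had 40 of its 42 UMIs there, Ero1l 209 of 227, Vegfa 67 of 75, Slc2a1 75 of 99, Bnip3 99 of 133 and Hif1a 110 of 200. At the other end, Ldhb had 13.8% of its UMIs in sub-cluster 5 and Pfkm 26.3%, as did the astrocyte markers Aqp4 with 10.5% and Gfap with 16.0%.

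In levels, Ero1l stood at 672 CPM in relapsed sub-cluster 5, beside 23.9 CPM in relapsed sub-cluster 1 and 25.6 CPM in relapsed sub-cluster 2. A single cell held 125 of the 227 Ero1l UMIs, and the top 5 cells held 82.8%. The top 5 relapsed cells also held 86.7% of Ndrg1, 80.95% of Slc16a3, 75% of Pfkp, 63.6% of Slc2a1 and 62.6% of Egln1 UMIs. For the other members past 2-fold higher that share was lower, down to 25.7% for Tpi1. Vegfa stood at 216 CPM in relapsed sub-cluster 5, with 13.3 CPM in sub-cluster 1 and 8.54 CPM in sub-cluster 2 of the same tumour, both below the 27.3 CPM of primary sub-cluster 3 with overlapping intervals. Gapdh was spread more evenly, with 4845 CPM in relapsed sub-cluster 5, 2029 in 1 and 2221 in 2, against 805, 981 and 812 CPM in primary sub-clusters 1, 2 and 3. Ldhb had the opposite order to Ldha within the relapsed cells: 264 CPM in sub-cluster 5, 906 CPM in 1 and 487 CPM in 2, where Ldha stood at 1808, 667 and 1036 CPM.

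**Figure D3:**
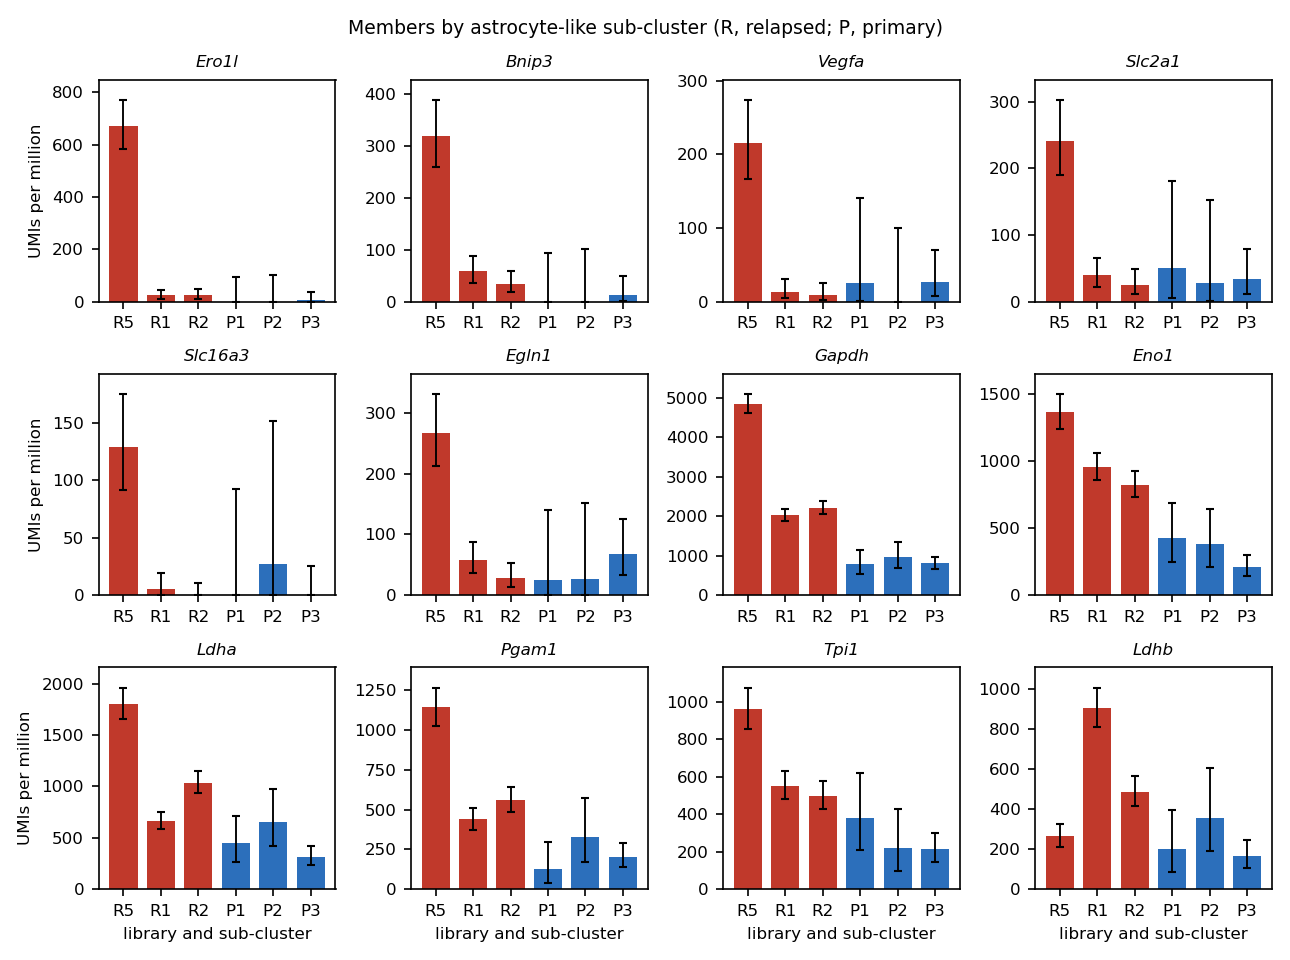
CPM of 12 members in the astrocyte-like sub-clusters (R, relapsed; P, primary; the number is the sub-cluster), with exact 95% Poisson intervals. Ero1l, Bnip3, Vegfa, Slc2a1, Slc16a3 and Egln1 are highest in R5, while Ldhb is highest in R1 at 906 CPM.

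Only sub-clusters 1 and 2 held cells of both tumours, 39 relapsed and 15 primary. Within them 18 members were measured, and 8 were at least 2-fold higher in relapsed cells (background 13.1% of 3968 genes), none was at least 2-fold lower (10.4%), and the median log2 ratio was 0.89, beside 0.01 for all genes. These 8 were Hif1a (1.66), Pfkl (1.5), Ddit4 and Ldhb (1.36 each), Gapdh (1.25), Pgam1 (1.16), Eno1 (1.14) and Epas1 (1.13). Of the genes with the widest ratios over the whole class, Bnip3 had 34 relapsed UMIs and none in primary cells there. Ero1l had 18 relapsed and 0 primary UMIs, Pdk1 26 and 0, Adm 14 and 0, Slc16a3 2 and 1, and Slc2a1 24 and 3, all too few to be measured. This split was chosen after the data were seen. With at least 1000 genes and at most 5% mitochondrial UMIs per cell, which left 25 relapsed and 10 primary cells, 14 of 21 measured members were at least 2-fold higher in relapsed cells, against 15.6% of 2577 genes, and 0 were lower, against 8.15%.

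In granule lineage cells, the lineage these tumours arise from, 8 members were past 2-fold between the tumours. The class held 6914 relapsed and 7383 primary cells, and 33 of the 34 genes were measured, all but Eno2. At least 2-fold higher in relapsed cells were 6 genes, against 6.81% of 13342 genes, and 2 were lower, against 8.96%. The libraries' intervals did not overlap for any of the 8. The median log2 ratio was 0.32, beside −0.10 for all genes. Adm stood at 1.78 CPM in relapsed and 0.175 CPM in primary cells, from 100 and 8 UMIs in that order (log2 ratio 3.35). Ndrg1 stood at 4.74 CPM in relapsed and 1.44 CPM in primary cells (1.71), Pdk1 at 3.56 and 1.18 CPM (1.59), Slc16a3 at 1.57 and 0.613 CPM (1.36) and Pgk1 (phosphoglycerate kinase, the first ATP-yielding step) at 15.4 and 7.13 CPM (1.11), relapsed first throughout. Gapdh was abundant, at 3203 CPM in relapsed and 1560 CPM in primary cells (1.04). The 2 lower genes were Slc2a1, at 4.50 CPM in relapsed and 9.34 CPM in primary cells (−1.05), and Epas1, at 0.214 CPM in relapsed and 0.722 CPM in primary cells from 12 and 33 UMIs (−1.76). The other 25 lay between −0.50 for Ldhb and 0.95 for Mxi1. Adm, Epas1, Slc16a3, Slc2a1, Pdk1 and Ndrg1 were thus past 2-fold at levels under 10 CPM in both tumours. Markers of other cell types also differed in this class: the pituitary hormone markers summed to 488 CPM in relapsed and 4.11 CPM in primary cells, the erythrocyte markers to 4.65 and 191.5 CPM, the choroid plexus markers to 2.49 and 36.0 CPM, the pericyte markers to 1.104 and 14.2 CPM and the microglia markers to 9.78 and 42.3 CPM, relapsed first. Endothelial markers summed to 8.55 CPM in relapsed and 8.40 CPM in primary cells. The part of RNA from other cells in the low levels was not tested. Slc2a1 thus lay on opposite sides in the astrocyte-like and granule lineage cells; that difference was not tested.

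The same comparison inside the lineage kept to a few genes. In precursor cells 5 of 32 measured members were higher (5.89% of all genes) and 1 lower (8.45%), in cycling cells 6 of 32 higher (6.5%) and 0 lower (8.08%), and in differentiating cells 3 of 27 higher (6.07%) and 1 lower (7.25%). Pdk1 was past 2-fold in all 3, with log2 ratios of 1.72 in precursor, 2.90 in cycling and 1.08 in differentiating cells, the last with overlapping intervals. Slc2a1 was lower past 2-fold in precursor (−1.20) and differentiating (−1.36) cells. Ddit4 passed in cycling cells alone, at 57.9 CPM in relapsed and 18.2 CPM in primary cells.

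Within each tumour some members also differed with the state of the granule lineage cells, which gives 2 readings of the same contrast. Of 28 members measured in both tumours, 6 were at least 2-fold higher in differentiating than in cycling cells in both, against 9.48% of 11235 genes, and 2 were lower in both, against 9.62%. Aldoa stood at 701 CPM in differentiating and 134 CPM in cycling cells of the relapsed tumour, and at 390 CPM in differentiating and 69.2 CPM in cycling cells of the primary tumour. Hk1, Tpi1, Pfkm, Bnip3 and Ddit4 were the others that were higher. Hk1 stood at 13.9 CPM in differentiating and 3.65 CPM in cycling relapsed cells, and at 8.33 and 2.06 CPM in the same classes of the primary tumour. Hk2 ran the other way, at 15.3 CPM in differentiating and 73.8 CPM in cycling relapsed cells and at 25.1 and 72.5 CPM in the primary tumour (log2 ratios −2.27 and −1.53). Ndrg1 was the second lower gene, at 1.82 and 6.02 CPM in the relapsed and 0.714 and 1.81 CPM in the primary tumour. Against precursor cells, Pfkm was higher (6.43% of 11268 genes) and Hk2 and Ndrg1 lower (6.79%) in both tumours, of 30 members measured.

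**Figure D4:**
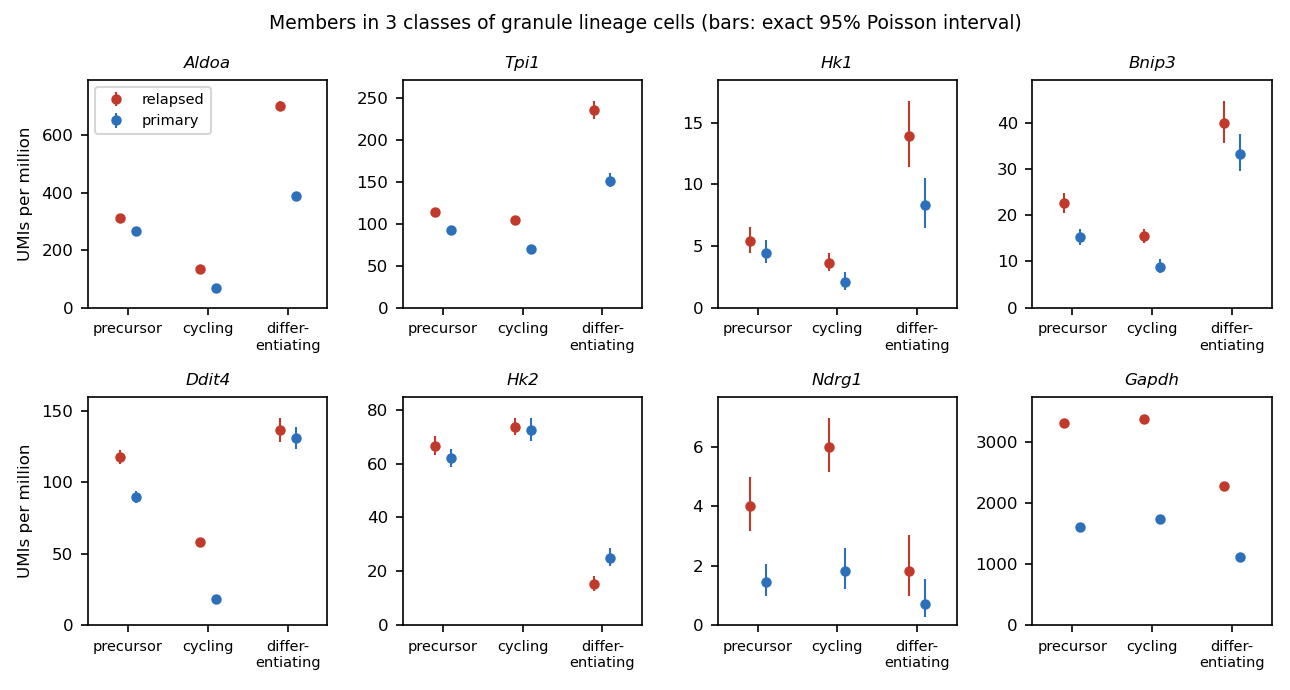
CPM of 8 members in the precursor, cycling and differentiating classes of granule lineage cells, relapsed in red and primary in blue, with exact 95% Poisson intervals. Hk2 is at 15.3 and 25.1 CPM in differentiating cells of the relapsed and primary tumour, while Aldoa is at 701 and 390 CPM, and Gapdh is higher in the relapsed tumour in all 3 classes.

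Oligodendrocyte precursor-like cells, the glial cells that give rise to myelinating cells, had higher levels of 8 glycolytic genes in the relapsed tumour, while the 7 measured genes of oxygen sensing and of the hypoxia group all had ratios below 0. Below the 30 UMIs required, Adm had 17 relapsed and 4 primary UMIs, or 39.4 and 5.85 CPM in that order (log2 ratio 2.75, interval 1.14 to 4.78), and P4ha1 had 9 relapsed and 5 primary UMIs (1.51, −0.22 to 3.44). The class held 34 relapsed cells, all in 1 cluster, and 188 primary cells, all in another, at median depths of 12840 UMIs in relapsed and 3428 UMIs in primary cells. Of 18 members measured, 8 were at least 2-fold higher in relapsed cells (10.4% of 5568 genes) and 3 lower (18.3%), with a median log2 ratio of 0.53 beside −0.11. Ldha led with 549 CPM in relapsed and 136 CPM in primary cells (2.01), and Gapdh stood at 1399 CPM in relapsed and 404 CPM in primary cells (1.79). Gpi1, Eno1, Aldoa, Ldhb, Pgam1 and Tpi1 followed, between 1.70 and 1.07. The 3 lower genes were Mxi1 (−1.14, overlapping intervals), Epas1 at 51.0 CPM in relapsed and 108 CPM in primary cells (−1.09), and Bnip3l at 90.3 CPM in relapsed and 187 CPM in primary cells (−1.05). Epas1 stood at 0.12 in cells with at least 1000 genes and at most 5% mitochondrial UMIs. The other 16 members had fewer than 30 UMIs, among them Ero1l, Bnip3, Pdk1, Vegfa and Adm. Marker sums of the class itself were 3058 CPM in relapsed and 7664 CPM in primary cells, and summed immediate early and stress genes were 2428 CPM in relapsed and 1306 CPM in primary cells.

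In microglia and macrophage-like cells (31 relapsed, 215 primary) the median of the members lay next to that of all genes. Of 23 measured, 2 were at least 2-fold higher in relapsed cells (4.95% of 6207 genes) and 4 lower (14.7%), with a median log2 ratio of −0.16 beside −0.15 for all genes. Hilpda stood at 59.8 CPM in relapsed and 11.5 CPM in primary cells (2.38), and Ddit4 at 78.8 CPM in relapsed and 23.0 CPM in primary cells (1.78). Ldhb stood at 182 CPM in relapsed and 439 CPM in primary cells (−1.27) and Hif1a at 59.8 CPM in relapsed and 123 CPM in primary cells (−1.04). Slc2a1 (−1.79) and P4ha1 (−1.22) were lower with overlapping intervals. Of the relapsed cells, 24 lay in 1 sub-cluster, led by Wfdc17, Sepp1 and Il18bp, which held 6 primary cells.

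Among the rarer classes, endothelial-like cells (12 relapsed, 21 primary) had the highest Slc2a1 of any named class, at 854 CPM in the relapsed and 377 CPM in the primary tumour. GLUT1 is the glucose transporter of the blood-brain barrier. Epas1 marked vascular and glial classes: it stood at 638 CPM in relapsed and 287 CPM in primary endothelial-like cells, 462 and 429 CPM in pericyte-like cells (13 relapsed, 3 primary), and 319 and 184 CPM in astrocyte-like cells, relapsed first, and below 1 CPM in granule lineage cells. Hif1a was spread over all these classes, at 41.8 CPM in relapsed and 48.8 CPM in primary granule lineage cells.

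Other genes of the same pathways gave a mixed picture in astrocyte-like cells. Of 20 further HIF target genes measured, 10 were at least 2-fold higher in relapsed cells and 1 lower (background 9.37% and 10.8%), with a median log2 ratio of 0.95. Car9, a carbonic anhydrase that acidifies the cell surroundings, stood at 56.8 CPM in relapsed and 4.49 CPM in primary cells (3.66), Hmox1, which degrades haem, at 165 and 13.5 CPM (3.61), and Pgf, placental growth factor, at 49.1 and 4.49 CPM (3.45), relapsed first. The 48 of 59 Car9 UMIs and 48 of 51 Pgf UMIs of the relapsed cells lay in sub-cluster 5. Of 6 pentose phosphate genes all ratios were above 0, but 1 passed 2-fold, Pgd at 1.48. Of 10 genes of lactate and pyruvate transport and entry 3 were higher and 1 lower, with Pdk3 at 1.52, Slc16a1 at −1.50 and Bsg, the chaperone of lactate transporters, at 1.43. Of 6 HIF regulators none was higher and 2 were lower, Egln2 at −1.28 and Crebbp at −1.19, and of 3 further glycolytic genes none passed. Of 10 genes of the ATF4 and unfolded protein response 1 was higher and 2 were lower, with a median of −0.49; Xbp1 stood at −3.22 and Ddit3 at −1.80, and Phgdh at 1.19. Of 18 genes of the immediate early response and of dissociation stress, 6 were past 2-fold higher and 0 lower, with a median of 0.50. Fosb (3.33), Klf4 (2.73) and Fos (2.25) led. Markers of handling stress were thus also higher in relapsed cells, and their part in the ratios was not tested.

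In granule lineage cells 5 of 26 further HIF targets were at least 2-fold higher and 3 lower (background 6.81% and 8.96%), led by Angptl4 (2.74), Bhlhe40 (2.68) and Loxl2 (1.70). Of 10 HIF regulators 1 was higher, Siah2 at 1.75, an E3 ligase for the prolyl hydroxylases. Of 16 ATF4 and unfolded protein response genes 0 were higher and 7 lower, with Chac1 at −2.87, Atf3 at −2.51 and Sdf2l1 at −1.93. Of 9 further glycolytic genes 1 was lower, Aldoc at −2.11, and of 15 lactate and pyruvate genes 1, Slc16a7 at −2.32; of 7 pentose phosphate genes none passed.

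In the sorted astrocytes, where replicate libraries allow a test, no member passed it. The 6 libraries held 6718165 to 11798735 reads. The labels do not say whether replicates came from separate animals, so p-values measure the spread between these libraries. In bulk samples fewer cells of a type and less RNA per cell cannot be told apart. edgeR's quasi-likelihood test with Benjamini-Hochberg adjustment called 94 of 14176 genes between stroma B and stroma A (0.663%), 55 of them higher in stroma B (0.388%), and 0 of the 33 members tested; the lowest adjusted p among the members was 0.115. Eno1 was not tested. 4 members had an unadjusted p under 0.05 in the same edgeR test, Hk2, Pfkp, Vegfa and Ldha, against 21.8% of all genes, and DESeq2 called 3, Hk2, Pfkp and Vegfa, against 10.5% of 16468 genes. limma on log2(FPKM + 0.1) called 0 members, against 0.779% of 16438 genes, with 7 members at an unadjusted p under 0.05, against 19.4% of those genes. The CPM of the groups did not overlap for 5 members, Pfkp, Tpi1, Eno2, Ldha and Egln3, against 27.2% of genes. The fitted log2 fold change was above 0 for 21 members and below 0 for 12, with a median of 0.11 beside −0.03 for all genes. Shares of members at these thresholds thus lay near or below those of all genes.

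In stroma B replicates 1, 2 and 3 Hk2 gave 259.5, 104 and 33.2 CPM, against 30.1, 26.2 and 51.7 CPM in stroma A; replicate 3 of stroma B lay inside the range of stroma A (log2 fold change 1.88, SE 0.69, edgeR adjusted p 0.184, DESeq2 adjusted p 0.030). Vegfa ran in the reverse order over the same libraries, at 56.1, 155 and 340 CPM in stroma B and 48.9, 65.9 and 56.9 CPM in stroma A (1.68, SE 0.58, edgeR adjusted p 0.168, DESeq2 adjusted p 0.027). Replicate 1 of stroma B lay in the stroma A range. Pfkp, the member with the lowest p, stood at 28.4, 25.3 and 43.1 CPM in stroma B and 58.3, 60.6 and 82.6 CPM in stroma A (−1.06, SE 0.28, edgeR adjusted p 0.115, DESeq2 adjusted p 0.028). All 3 stroma B values were lower. Without stroma B replicate 3, edgeR called 1342 genes, Hk2 (2.36, adjusted p 0.025) and Pfkp (−1.30, adjusted p 0.030) among them; no member was called when any other single library was left out.

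Ldha was the most even of the members whose groups did not overlap, at 172, 173 and 181 CPM in stroma B and 143, 133 and 128 CPM in stroma A (0.38, SE 0.16, edgeR adjusted p 0.228). Egln3, the prolyl hydroxylase most strongly induced by HIF, stood at 10.8, 7.01 and 15.5 CPM in stroma B and 4.91, 6.19 and 5.73 CPM in stroma A (0.98, SE 0.42, edgeR adjusted p 0.229). Tpi1 stood at 46.0, 51.6 and 64.6 CPM in stroma B and 44.8, 40.3 and 36.3 CPM in stroma A. Eno2, the neuronal enolase, stood at 6.54, 16.4 and 18.3 CPM in stroma B and 18.4, 20.9 and 23.4 CPM in stroma A, nearly touching. Ndrg1 had the widest fitted value below 0, at 7.87, 20.04 and 1.66 CPM in stroma B and 14.3, 30.4 and 83.5 CPM in stroma A (−2.11, SE 0.94, edgeR adjusted p 0.241), with overlapping groups. Slc2a1 stood at 42.8, 30.2 and 30.6 CPM in stroma B and 21.0, 83.0 and 121 CPM in stroma A (−1.12, SE 0.56, edgeR adjusted p 0.288). The genes with the widest ratios in relapsed astrocyte-like cells had overlapping groups here, and none passed the test. Ero1l stood at 18.4, 17.9 and 33.9 CPM in stroma B and 19.7, 23.1 and 23.6 CPM in stroma A (0.08). Adm stood at 2.44, 10.6 and 29.3 CPM in stroma B and 2.05, 5.64 and 6.51 CPM in stroma A (1.57, SE 0.87, edgeR adjusted p 0.328). The fitted values of Pdk1, Bnip3 and Slc16a3 were 1.09, 0.56 and 0.54, with edgeR adjusted p of 0.535, 0.630 and 0.765 in that order.

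**Figure D5:**
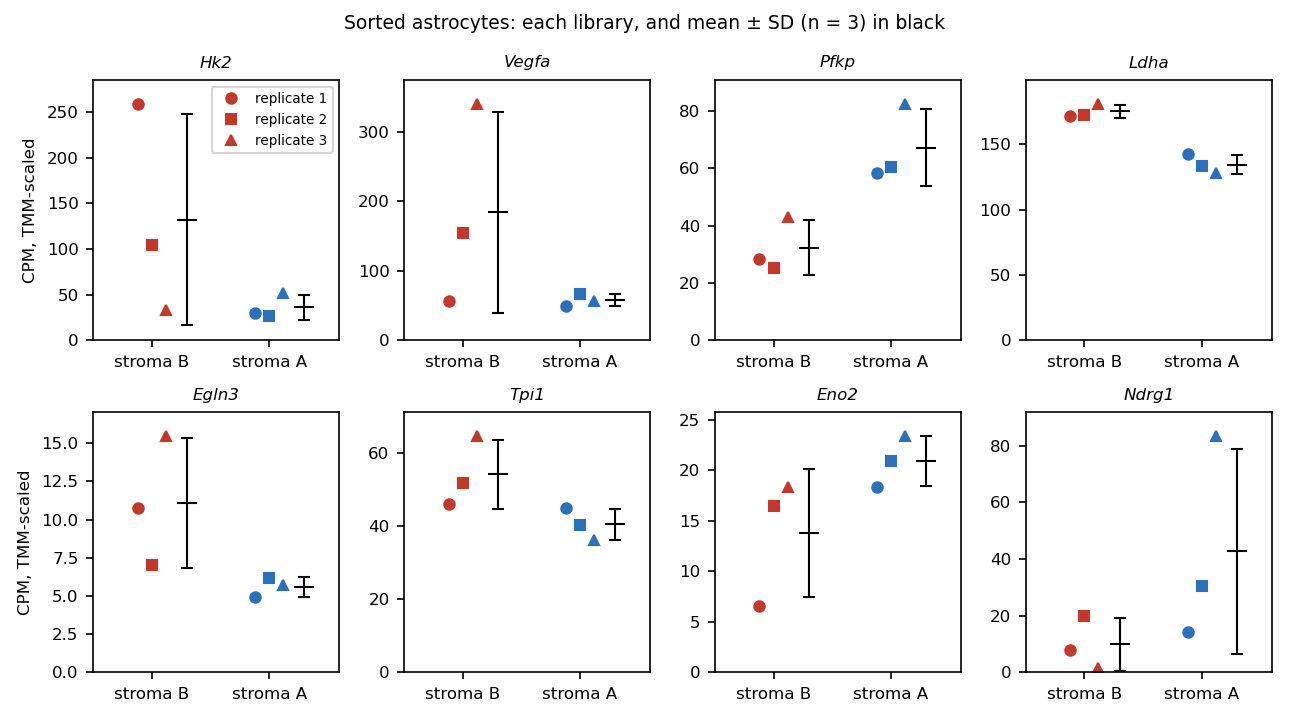
CPM of 8 members in each of the 3 stroma B (red) and 3 stroma A (blue) libraries, with mean ± SD (n = 3) in black. Hk2 reaches 259.5 CPM in stroma B replicate 1 and Vegfa 340 CPM in replicate 3, while the 3 Ldha values of stroma B lie close together above those of stroma A.

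The stroma libraries also differed in their cell markers. Each of the 10 astrocyte markers was detected, but summed oligodendrocyte precursor markers exceeded summed astrocyte markers in 4 of the 6 libraries. Summed over their list, granule precursor markers gave 3621, 2215 and 546 CPM in the stroma B libraries in replicate order, against 538, 227 and 275 CPM in stroma A, the same order over the stroma B libraries as Hk2. Astrocyte markers stood at 5617, 8232 and 2663 CPM in stroma B and 2316, 970 and 1960 CPM in stroma A, and oligodendrocyte precursor markers at 1945, 2002 and 10137 CPM in stroma B and 18769, 10390 and 10168 CPM in stroma A. Cycling markers were at 3804, 3798 and 4238 CPM in stroma B and 1272, 1353 and 1233 CPM in stroma A. Microglia markers gave 78.8, 54.5 and 29.8 CPM in stroma B and 26.2, 335 and 1554 CPM in stroma A, and endothelial markers 21.4, 55.0 and 38.6 CPM in stroma B and 49.5, 321 and 780 CPM in stroma A. Pericyte markers gave 72.9, 115 and 23.2 CPM in stroma B and 10.4, 273 and 1117 CPM in stroma A, and oligodendrocyte markers 147, 75.02 and 368 CPM in stroma B and 627, 1395 and 1724 CPM in stroma A. All 4 of these sums were highest in stroma A replicate 3, the library with the highest Ndrg1 and Slc2a1. The part of other cell types in the values of the members was not tested.

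The counts of 4 members carry a further limit. Relative to the median of 8939 genes, the read count per unit of deposited FPKM was 0.373% for Eno1, 1.92% for Gapdh, 6.96% for Pgam1 and 16.6% for Pgk1, against 51.7% to 155% for the 21 other members with a value. Near-identical copies of these 4 genes are known, but their part in the low counts was not tested. The part of such copies in the single-cell levels of the same genes, Pgk1 among them, was not tested either. The counts of these 4 members are uncertain. On the deposited FPKM scale, which is per length, Gapdh stood at 99.1, 70.7 and 56.8 in stroma B and 57.2, 32.4 and 34.3 in stroma A, and Eno1 at 6.47, 8.90 and 14.5 in stroma B and 13.1, 4.01 and 1.14 in stroma A. Over all 6 libraries the mean FPKM was highest for Pkm (76.2), followed by Gapdh (58.4), Aldoa (51.1), Ldhb (45.3) and Ldha (37.3), and lowest for Slc16a3 (0.559), Ankrd37 (0.695) and Pdk1 (0.705). By FPKM the groups did not overlap for Vegfa, Ldha and Egln3, with Vegfa at 6.02, 18.02 and 38.4 in stroma B and 5.48, 4.95 and 5.0 in stroma A. The annotation places another gene on the opposite strand over 15 of the 34 members and on the same strand over 5, and reads of such pairs may be shared.

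None of the wider lists had a gene that passed the edgeR test either. Of 30 further HIF targets tested, 18 were fitted higher and 12 lower with a median log2 fold change of 0.12; of 15 lactate and pyruvate genes 11 were fitted higher, with a median of 0.28, and of 10 further glycolytic genes 7 were fitted lower, with a median of −0.33. The medians of the pentose phosphate, HIF regulator, ATF4 and unfolded protein response, and stress lists were −0.03, −0.06, 0.17 and −0.06, beside −0.03 for all genes.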

How the data were processed

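The single-cell files hold UMI counts per gene and barcode as the authors deposited them; Cell Ranger, STAR and Seurat are named with build mm10 in the submitters' processing notes, without versions or parameters. The RNA-seq read counts and FPKM values per gene symbol are the authors' deposited tables; per the labels' protocols tumours were dissociated with papain and cells sorted by flow cytometry, and the RNA-seq libraries carry the protocol text of the single-cell libraries. How reads were counted, and whether by strand, is not given here by any label or header. The members and the wider lists were chosen with earlier results of these data known.

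Cells with at least 500 genes and at most 10% mitochondrial UMIs were kept. Scrublet's own threshold marked 0 doublets, so the 6% of cells with the highest scores were removed. Clustering used scanpy 1.11.5 and Leiden at resolution 1 with the members and wider lists left out, and classes were named from fixed markers. UMIs were summed per class and library, and ratio intervals are exact conditional intervals (scipy 1.17.1). The 6 astrocyte libraries were compared with edgeR 4.0.16 (R 4.3.3, TMM, low-count filter, quasi-likelihood test, Benjamini-Hochberg threshold 0.05) over all genes. That step was also run on simulated data, and the outcome of that run is not given here. CPM of these libraries are TMM-scaled. The column of stroma A replicate 2 was matched to its title on their shared start. FPKM were tested, as an alternative added after the data were seen, with limma 3.58.1 on log2(FPKM + 0.1). DESeq2 1.42.0, other filters, left-out libraries and other cell filters and clusterings were further alternatives.

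All 34 genes were accounted for. Those past 2-fold with intervals apart in 1 of 4 main classes, or with stroma groups that did not overlap, are given with all values (the 8 with the largest log2 value in full). Wider-list genes are named where among the 3 largest log2 values of their list. No protein sequence was used here.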

Additional observations from a re-analysis of the deposited data

Results flagged for a closer look

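The relapsed-to-primary contrast lay on opposite sides, past 2-fold each way and with separate counting intervals, for 3 members between cell classes; with 1 library a state, these differences were not tested. Slc2a1 had a log2 ratio of 1.41 in astrocyte-like and −1.05 in granule lineage cells, a difference of 2.46; of its 99 relapsed astrocyte-like UMIs 75 lay in sub-cluster 5, which held no primary cell, and within sub-clusters 1 and 2 it stood at 33.0 CPM in relapsed and 39.3 CPM in primary cells, from 24 and 3 UMIs. Hif1a had 1.03 in astrocyte-like and −1.04 in microglia and macrophage-like cells, a difference of 2.07. Ldhb had 1.5 in astrocyte-like and 1.47 in oligodendrocyte precursor-like cells but −1.27 in microglia and macrophage-like cells, differences of 2.77 and 2.74 in that order.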

How the results depend on the processing

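Of 58 recomputed single-cell counts and medians 56 stayed within 1.5 times or within counting error. The median log2 ratio in astrocyte-like cells was not scored as moved, at 1.43 over the class and 0.89 within sub-clusters 1 and 2. The exceptions were both in astrocyte-like cells, where 14 members were past 2-fold with at least 1000 genes and at most 5% mitochondrial UMIs and 8 within sub-clusters 1 and 2, against 22 in all cells of the class; fewer cells and measured genes entered both. Of 729 values of single members 670 were scored as staying, 58 as moved and 1 as turned in direction. That 1 was Epas1 in oligodendrocyte precursor-like cells, at −1.09 in all cells of the class and 0.12 with the stricter cell filter. The cause was not tested. Smaller values could change sign as well: Bnip3l in astrocyte-like cells stood at 0.22 over the class and −0.50 within sub-clusters 1 and 2. In the sorted astrocytes 11 of 33 recomputed counts and medians moved by over 1.5 times. Of 363 entries for single members, 358 were scored the same and 5 as stronger. These 5 were calls absent from the main fit: Hk2, Pfkp and Vegfa by DESeq2, and Hk2 and Pfkp without stroma B replicate 3. With no member called in the main fit, this score follows the calls and does not measure how stable the fold changes were. DESeq2 called 1728 genes and 3 members. edgeR without a low-count filter called 227 genes and 0 members. Without both libraries whose titles share the number 5, edgeR called 0 genes, with 1563 at an unadjusted p under 0.05. Leaving out 1 library gave 0 to 1342 genes and 0 to 2 members. The 1342 genes and the 2 members, Hk2 and Pfkp, came without stroma B replicate 3; each of the other 5 omissions gave 0 genes by edgeR, with 2067 to 3781 at an unadjusted p under 0.05, and the cause was not tested. RLE factors gave 91 genes and limma on log2 FPKM 128, neither with a member. No paired analysis was possible because stroma B and stroma A share 1 number in their titles. The 40 primary astrocyte-like cells limit the precision: a gene with 1 primary UMI there has a wide ratio interval, such as 1.46 to 348 for Adm.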
